A study of Mus musculus with 12 samples.

Results

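The DNA methylation and imprint maintenance genes are 10 genes, Dnmt3a, Dnmt3b, Dnmt3l, Dnmt1, Uhrf1, Tet1, Tet2, Tet3, Trim28 and Zfp57, picked by symbol from the 23412 genes counted by RNA-Seq in mouse embryonic stem cells (mESCs). The cells were of the male v6.5 line, kept on gelatin in medium with serum and LIF, and bulk poly-A RNA from 48 hours of culture was sequenced as paired ends. There were 4 genotypes with 3 libraries each: unedited WT, Hmgn1-/-, Hmgn2-/- and Hmgn1-/-Hmgn2-/- mESCs. Hmgn1 and Hmgn2 encode nucleosome-binding proteins of active chromatin, and the comparisons ask how the loss of one or both changes the RNA of each gene. Hmgn1-/- mESCs have lost 1 bp on both alleles in exon 3 of Hmgn1, and Hmgn2-/- mESCs have gained 1 bp on both alleles in exon 4 of Hmgn2. Hmgn1-/-Hmgn2-/- mESCs carry both kinds of edit, since Hmgn2-/- cells were the parent in which Hmgn1 was edited next. Each knockout genotype is 1 line grown from a single edited cell, so genotype and clone cannot be told apart in any comparison.

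Totals per library were 31448468, 17614490 and 28524108 counts in WT mESCs and 25953244, 21059862 and 21993042 in Hmgn1-/- mESCs. They were 25908890, 26486535 and 17337908 in Hmgn2-/- mESCs and 31005479, 22151507 and 26410485 in Hmgn1-/-Hmgn2-/- mESCs. Levels are given as CPM, counts scaled to a common library size with the TMM factors of edgeR (a trimmed mean of log ratios). Replicates differed by more than counting noise, with a chi-square per degree of freedom of 3.4 to 36.4. Hmgn2-/- replicate 3, which had the lowest total, stood apart from replicates 1 and 2 of its genotype (36.4 and 20.6, against 8.11 between those replicates). For the TET genes, values without this library are given as well.

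DNA methylation in mammals sits mainly on the cytosines of CpG dinucleotides. DNMT3A and DNMT3B place it de novo with the help of DNMT3L, DNMT1 and UHRF1 copy it to the daughter strand after replication, and the TET enzymes oxidise it on the way to its removal. At imprinted loci, ZFP57 binds the methylated allele and recruits TRIM28, and mESCs in serum are known for high methylation with most of this machinery expressed at the same time.

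The edited genes were checked first. Hmgn1 was at 661, 594 and 612 CPM in WT mESCs, 138, 139 and 142 in Hmgn1-/- mESCs, 546, 556 and 640 in Hmgn2-/- mESCs and 21.6, 19.9 and 21.5 in Hmgn1-/-Hmgn2-/- mESCs. Hmgn2 was at 137, 121 and 119 CPM in WT mESCs, 106, 113 and 109 in Hmgn1-/- mESCs, 50.9, 54.5 and 53.7 in Hmgn2-/- mESCs and 53.9, 50.5 and 54.5 in Hmgn1-/-Hmgn2-/- mESCs. Every library labelled as edited in a gene was below all WT libraries for that gene. Hmgn2 in Hmgn1-/- mESCs, where it is not edited, was also below WT libraries (log2 FC -0.21, adjusted p = 0.0275, no call). Markers of embryonic stem cells were present in all libraries: the 12 genes of the marker list summed to 7063 to 8384 CPM, none was at 0, and Pou5f1 was the most abundant at 1966 ± 82.5 CPM (SD, n = 3) in WT mESCs.

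The 10 genes covered a wide span of levels in WT mESCs. Per kilobase of annotated exon, Trim28 was highest at 1041 ± 72.4 CPM per kb (SD, n = 3), above 99.7% of the 21737 genes ranked. Dnmt3l came next at 353 ± 60.4, then Uhrf1 at 167 ± 14.1, Zfp57 at 146 ± 11.9, Dnmt3b at 123 ± 6.9 and Dnmt1 at 63.7 ± 2.29. Tet1 at 31.5 ± 1.92, Dnmt3a at 30 ± 2.6 and Tet2 at 13.9 ± 1.3 followed, and Tet3 was lowest at 1.5 ± 0.111, above 55% of ranked genes. Uhrf1 overlapped Zfp57 and Tet1 overlapped Dnmt3a between WT libraries, and the other neighbours in this order did not overlap. The order differed in the knockouts at those same places. Zfp57 stood above Uhrf1 in mean level in all 3 knockouts, without overlap in Hmgn1-/- mESCs. Dnmt3a stood above Tet1 in mean level in all 3, without overlap in Hmgn1-/-Hmgn2-/- mESCs (57.2 ± 3.34 against 47.1 ± 7.03 CPM per kb, SD, n = 3).

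**Figure D1:**
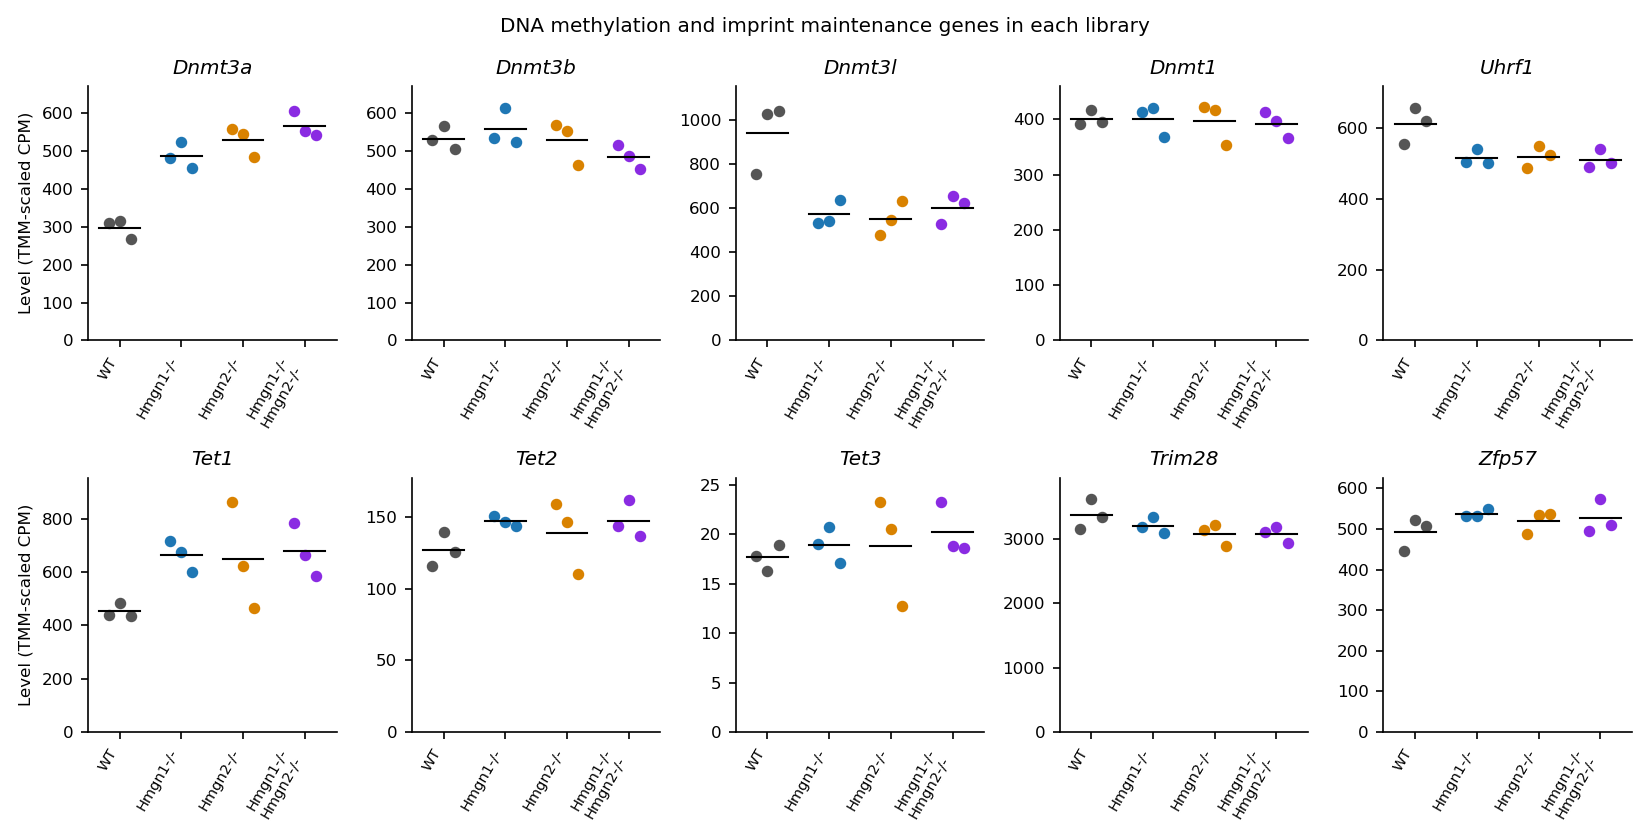
Each panel shows 1 gene, with its level in TMM-scaled CPM on a vertical axis that starts at 0, 1 point per library in 4 genotypes and a line at the mean of 3 libraries. Dnmt3a is higher and Dnmt3l lower in all 9 knockout libraries than in any WT library, and the lowest Hmgn2-/- point for Tet1 lies among the WT points.

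Dnmt3a, which encodes a de novo methyltransferase, lies at chr12:3806007-3914443 on the plus strand of GRCm38 (ENSMUSG00000020661.15). It was the member with the widest range between genotype means, 0.93 on the log2 scale. Its level was 311, 314 and 268 CPM in WT mESCs, 482, 523 and 455 in Hmgn1-/- mESCs, 558, 544 and 484 in Hmgn2-/- mESCs and 605, 552 and 543 in Hmgn1-/-Hmgn2-/- mESCs. All 9 knockout libraries were above all 3 WT libraries. Among the knockouts, Hmgn2-/- libraries overlapped both other genotypes, whereas Hmgn1-/- and Hmgn1-/-Hmgn2-/- libraries did not overlap each other. Against WT mESCs, Dnmt3a rose 1.63-fold in Hmgn1-/- mESCs (log2 FC 0.70, 95% CI 0.55 to 0.86, adjusted p = 7.23e-06). The rise was 1.78-fold in Hmgn2-/- mESCs (log2 FC 0.83, CI 0.63 to 1.03, adjusted p = 0.00011) and 1.9-fold in Hmgn1-/-Hmgn2-/- mESCs (log2 FC 0.92, CI 0.78 to 1.07, adjusted p = 4.08e-07). These p-values come from edgeR's quasi-likelihood test over all tested genes, and genes were called DEGs at an adjusted p under 0.01. In bulk RNA, a change in the number of cells that express a gene and a change in RNA per cell cannot be told apart.

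Dnmt3a has 3 annotated starts in the RefSeq promoter set of GRCm38.p6, with 38, 40 and 15 CG in the 250 bases before them. The stretches before the first and the last start are shown because Dnmt3a was the gene that rose most among the 10, and because CpG is the substrate of its product. The counts are per gene, so which start was used was not analysed here. Both lie on the plus strand, at chr12:3806730-3806979 and chr12:3891494-3891743, and are printed 5′ to 3′ with CG in capitals, a motif that reads the same on both strands.
Dnmt3a first start: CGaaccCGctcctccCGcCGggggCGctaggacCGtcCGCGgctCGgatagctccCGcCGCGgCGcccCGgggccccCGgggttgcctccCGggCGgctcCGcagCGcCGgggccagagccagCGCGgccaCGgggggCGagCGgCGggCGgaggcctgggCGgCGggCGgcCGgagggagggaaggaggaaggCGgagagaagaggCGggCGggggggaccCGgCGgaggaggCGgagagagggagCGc
Dnmt3a last start: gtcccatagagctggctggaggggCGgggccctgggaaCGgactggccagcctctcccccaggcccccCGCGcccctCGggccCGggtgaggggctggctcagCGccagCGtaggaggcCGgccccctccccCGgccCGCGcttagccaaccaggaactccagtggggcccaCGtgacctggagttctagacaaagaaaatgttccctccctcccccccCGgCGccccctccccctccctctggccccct
The first holds 38 CG, a number reached by 1.88% of the 32851 promoters of this length (250 bases), and the last holds 15, reached by 27.3%. The median promoter holds 6, and 92.1% hold at least 1. The first stretch lies within an intron of the GENCODE gene with no exon bases, and the last lies in an intron apart from 16 bases. The 50 bases after the first start were not found in transcripts, and the stretch before this start overlaps that before the second.

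Dnmt3l, which encodes a partner of the de novo enzymes with no catalytic activity of its own, lies at chr10:78041947-78063622 on the plus strand (ENSMUSG00000000730.13). Its level was 756, 1028 and 1043 CPM in WT mESCs, 534, 545 and 640 in Hmgn1-/- mESCs, 480, 549 and 634 in Hmgn2-/- mESCs and 528, 655 and 627 in Hmgn1-/-Hmgn2-/- mESCs. All 9 knockout libraries were below all 3 WT libraries, the 3 knockouts overlapped one another, and WT replicate 1 was well below the other WT libraries. The log2 FC against WT mESCs was -0.72 in Hmgn1-/- mESCs (95% CI -0.94 to -0.50, adjusted p = 0.000147), a level of 0.606 relative to WT. It was -0.76 in Hmgn2-/- mESCs (CI -1.06 to -0.47, adjusted p = 0.00244) and -0.65 in Hmgn1-/-Hmgn2-/- mESCs (CI -0.88 to -0.42, adjusted p = 0.00044). Dnmt3l thus fell in all 3 knockouts. In Hmgn2-/- mESCs the call for Dnmt3l was lost without WT replicate 2 (log2 FC -0.70, adjusted p = 0.0157), without WT replicate 3 (-0.69, adjusted p = 0.0155) and without Hmgn2-/- replicate 2 (-0.76, adjusted p = 0.0145).

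The 5′ end of Dnmt3l overlaps Aire, a gene on the minus strand at chr10:78030022-78043610 known for its work in the thymus. Whether the counting of reads used the strand is not stated in the sources used, so reads in the overlap could fall to either gene. Aire was at 60.6, 66.9 and 71.3 CPM in WT mESCs, 28.4, 23.4 and 27.1 in Hmgn1-/- mESCs, 20.7, 25.3 and 32.8 in Hmgn2-/- mESCs and 19.5, 28.2 and 23.4 in Hmgn1-/-Hmgn2-/- mESCs. It fell in each knockout, without overlap with WT libraries. The log2 FC of Aire was -1.34 in Hmgn1-/- mESCs (adjusted p = 1.48e-07), -1.34 in Hmgn2-/- mESCs (adjusted p = 0.000119) and -1.49 in Hmgn1-/-Hmgn2-/- mESCs (adjusted p = 4.94e-07). Counts on Aire were a fraction of 0.0712 ± 0.00792 of those on Dnmt3l in WT mESCs (SD, n = 3), and 0.0461 ± 0.00607, 0.047 ± 0.00428 and 0.0391 ± 0.00345 in the knockouts in the same order.

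Dnmt3l also has 3 RefSeq starts, and the stretches before the middle and the last are shown beside those of Dnmt3a because the genes moved in opposite directions. Both lie in introns on the plus strand of GRCm38.p6, at chr10:78049592-78049841 and chr10:78055085-78055334, and CG is again in capitals.
Dnmt3l middle start: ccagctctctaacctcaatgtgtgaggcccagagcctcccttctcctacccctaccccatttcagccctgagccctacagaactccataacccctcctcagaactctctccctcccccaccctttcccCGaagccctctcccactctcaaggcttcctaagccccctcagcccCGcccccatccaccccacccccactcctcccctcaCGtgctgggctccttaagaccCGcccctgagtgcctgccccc
Dnmt3l last start: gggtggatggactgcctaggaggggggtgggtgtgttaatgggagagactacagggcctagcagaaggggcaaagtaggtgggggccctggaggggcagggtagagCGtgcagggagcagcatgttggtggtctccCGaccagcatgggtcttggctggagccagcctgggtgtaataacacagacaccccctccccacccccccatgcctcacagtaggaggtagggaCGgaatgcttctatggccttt
These hold 4 and 3 CG, numbers reached by 62.2% and 71% of all promoters of this length. The windows of the other members ranged from 2 CG at a Dnmt1 start, reached by 81.2% of promoters, to 51 CG at the Tet2 start, reached by 0.067%. Over the 19 starts of the 10 genes, those of a single gene could differ widely: Dnmt1 had starts with 2, 7 and 26 CG, and Uhrf1 had starts with 10 and 30. Whether the number of CG goes with the direction of change was not tested.

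Dnmt3b, the other de novo methyltransferase (chr2:153649450-153687730, plus strand), had no call in any comparison of a knockout with WT mESCs. Its level was 528, 565 and 506 CPM in WT mESCs, 535, 614 and 523 in Hmgn1-/- mESCs, 568, 553 and 464 in Hmgn2-/- mESCs and 515, 487 and 452 in Hmgn1-/-Hmgn2-/- mESCs. Each knockout overlapped WT mESCs. The log2 FC was 0.06 in Hmgn1-/- mESCs (95% CI -0.09 to 0.20), -0.01 in Hmgn2-/- mESCs (CI -0.21 to 0.19) and -0.14 in Hmgn1-/-Hmgn2-/- mESCs (CI -0.27 to -0.01, adjusted p = 0.107). Counts on Dnmt3a divided by counts on Dnmt3b, with no correction for length and no test of the ratio, were 0.53 to 0.588 in WT mESCs, 0.852 to 0.903 in Hmgn1-/- mESCs, 0.981 to 1.04 in Hmgn2-/- mESCs and 1.13 to 1.2 in Hmgn1-/-Hmgn2-/- mESCs. No genotype overlapped another in this ratio. Counts on Dnmt3a divided by counts on Dnmt3l were 0.325 ± 0.0786 in WT mESCs (SD, n = 3), and 0.858 ± 0.131, 0.972 ± 0.201 and 0.951 ± 0.167 in the knockouts in the same order.

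For maintenance, Dnmt1, which encodes the enzyme that copies methylation (chr9:20907209-20959888, minus strand), was at 353 to 423 CPM over the 12 libraries, and its genotype means spanned 0.03 on the log2 scale. Its log2 FC was -0.01 in Hmgn1-/- mESCs (95% CI -0.14 to 0.12), -0.01 in Hmgn2-/- mESCs (CI -0.20 to 0.17) and -0.04 in Hmgn1-/-Hmgn2-/- mESCs (CI -0.16 to 0.09). Uhrf1, which encodes the protein that recruits DNMT1 to hemimethylated DNA (chr17:56303321-56323486, plus strand), was at 555, 657 and 621 CPM in WT mESCs, 503, 540 and 502 in Hmgn1-/- mESCs, 486, 548 and 524 in Hmgn2-/- mESCs and 489, 540 and 502 in Hmgn1-/-Hmgn2-/- mESCs. All knockout libraries were below all WT libraries for Uhrf1, by a small margin at WT replicate 1. Uhrf1 fell in Hmgn1-/- mESCs (log2 FC -0.25, CI -0.39 to -0.11, adjusted p = 0.0092) and in Hmgn1-/-Hmgn2-/- mESCs (log2 FC -0.27, CI -0.41 to -0.12, adjusted p = 0.00792). In Hmgn2-/- mESCs its log2 FC was -0.23 (CI -0.42 to -0.04), with an adjusted p of 0.0886 and no call. Both calls for Uhrf1 were close to the threshold, and both were lost when all 12 libraries were fitted at once (adjusted p = 0.0161 and 0.0113). In Hmgn1-/- mESCs the call was lost without WT replicate 2 (adjusted p = 0.0529), WT replicate 3 (0.0363) or Hmgn1-/- replicate 1, 2 or 3 (0.0419, 0.0145 and 0.0303). In Hmgn1-/-Hmgn2-/- mESCs it was lost without WT replicate 2 (0.0432), WT replicate 3 (0.0307) or Hmgn1-/-Hmgn2-/- replicate 1, 2 or 3 (0.0347, 0.0125 and 0.0321).

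Tet1, which encodes a dioxygenase that oxidises methylcytosine, lies at chr10:62804570-62908996 on the minus strand (ENSMUSG00000047146.17). Its level was 439, 485 and 436 CPM in WT mESCs, 716, 674 and 599 in Hmgn1-/- mESCs, 862, 622 and 465 in Hmgn2-/- mESCs and 784, 662 and 584 in Hmgn1-/-Hmgn2-/- mESCs. Hmgn1-/- and Hmgn1-/-Hmgn2-/- libraries were all above WT libraries, whereas Hmgn2-/- replicate 3 lay within the WT range and Hmgn2-/- replicate 1 was the highest of the 12. Tet1 rose 1.46-fold in Hmgn1-/- mESCs (log2 FC 0.54, 95% CI 0.40 to 0.69, adjusted p = 5.19e-05) and 1.49-fold in Hmgn1-/-Hmgn2-/- mESCs (log2 FC 0.57, CI 0.38 to 0.76, adjusted p = 0.000242). In Hmgn2-/- mESCs the log2 FC was 0.52 (CI 0.14 to 0.89, adjusted p = 0.0558), with no call. Without Hmgn2-/- replicate 3 it was 0.71 (adjusted p = 0.000494), which is a call. Over all runs with 1 library left out, this log2 FC ranged from 0.26 to 0.71, with an adjusted p of up to 0.181. When all 12 libraries were fitted at once, Tet1 lost its calls in Hmgn1-/- mESCs (adjusted p = 0.0218) and Hmgn1-/-Hmgn2-/- mESCs (0.0159).

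The other TET genes had no call against WT mESCs with all 6 libraries and no block for the replicate number. Tet2 (chr3:133463679-133545139, minus strand) was at 116 to 140 CPM in WT mESCs and 144 to 151 in Hmgn1-/- mESCs, which did not overlap. Its log2 FC was 0.21 in Hmgn1-/- mESCs (95% CI 0.06 to 0.35, adjusted p = 0.0355), 0.12 in Hmgn2-/- mESCs (CI -0.15 to 0.40) and 0.21 in Hmgn1-/-Hmgn2-/- mESCs (CI 0.04 to 0.38, adjusted p = 0.0639). In Hmgn1-/- mESCs, Tet2 gained a call without WT replicate 2 (log2 FC 0.28, adjusted p = 0.00884) and with the block (0.21, adjusted p = 0.00832). Without replicate 3 of Hmgn2-/- mESCs, it was at 0.26 there (adjusted p = 0.0319, no call). Dropping 1 library at a time gave Tet2 a log2 FC of 0.02 to 0.26 in Hmgn2-/- mESCs, with an adjusted p of up to 0.952. In Hmgn1-/- mESCs the same runs gave 0.14 to 0.28, with an adjusted p of up to 0.111. Tet3, on chromosome 6 and low in mESCs, was at 12.7 to 23.3 CPM over the 12 libraries, with both the lowest and the highest value seen in Hmgn2-/- mESCs and the highest shared with Hmgn1-/-Hmgn2-/- replicate 1. The log2 FC of Tet3 was 0.09, 0.10 and 0.19 in Hmgn1-/-, Hmgn2-/- and Hmgn1-/-Hmgn2-/- mESCs, and 0.31 in Hmgn2-/- mESCs without replicate 3 (adjusted p = 0.0587, no call). For Tet3 in Hmgn2-/- mESCs, leaving out each library in turn gave -0.07 to 0.31, so its sign also turned. Counts on Tet1 divided by counts on Tet2 were 3.45 to 3.77 in WT mESCs and 4.09 to 5.43 over the knockouts, without overlap.

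The genes of imprint maintenance were steady by comparison. Zfp57, which encodes the zinc finger protein that recognises methylated imprinting control regions (chr17:37001163-37010635, plus strand), was at 446, 522 and 508 CPM in WT mESCs and 487 to 574 over the knockouts. Hmgn1-/- libraries (531 to 549) were all above WT libraries, and the other knockouts overlapped them. Its log2 FC was 0.12 in Hmgn1-/- mESCs (95% CI -0.01 to 0.25), 0.08 in Hmgn2-/- mESCs (CI -0.11 to 0.27) and 0.09 in Hmgn1-/-Hmgn2-/- mESCs (CI -0.06 to 0.25). Trim28, the corepressor that ZFP57 recruits (chr7:12999114-13031035, plus strand), was at 3161, 3628 and 3349 CPM in WT mESCs and 2896 to 3348 over the knockouts, and overlapped in each comparison. Its log2 FC was -0.08 in Hmgn1-/- mESCs (CI -0.21 to 0.05), -0.13 in Hmgn2-/- mESCs (CI -0.31 to 0.05) and -0.14 in Hmgn1-/-Hmgn2-/- mESCs (CI -0.27 to -0.01, adjusted p = 0.0963). Within Trim28 lies Zbtb45 on the minus strand, whose log2 FC was -0.13, -0.17 and -0.23 in the same order, with no call.

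Put together by comparison, Dnmt3a and Tet1 rose and Dnmt3l and Uhrf1 fell in Hmgn1-/- mESCs. All 10 genes passed the filter on low counts in each comparison. In Hmgn1-/- mESCs 4 of the 10 were DEGs, where 17.3% of 13917 tested genes were. Of these 2 were higher (7.28% of all genes) and 2 lower (10.1%). The median log2 FC of the 10 was 0.08, with 0 for all genes. The members were chosen with earlier results of these data known, so the shares of all genes, here and below, are given for scale only.

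In Hmgn2-/- mESCs, Dnmt3a rose and Dnmt3l fell. These 2 of the 10 genes were the DEGs, where 9.97% of 14047 tested genes were, with 1 higher (3.3% of all genes) and 1 lower (6.66%). The median log2 FC was 0.03, with 0.01 for all genes. Without WT replicate 2, WT replicate 3 or Hmgn2-/- replicate 2, the count was 1 (Dnmt3a), where 727, 733 and 733 genes were DEGs in all instead of 1400. Without Hmgn2-/- replicate 3 it was 3, with Tet1 added, and 1939 in all.

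In Hmgn1-/-Hmgn2-/- mESCs the called genes were the same 4 as in Hmgn1-/- mESCs, with the same directions. This is 4 of 10, where 18% of 14128 tested genes were DEGs, with 2 higher (7.79% of all genes) and 2 lower (10.2%). The median log2 FC was 0.03, with 0 for all genes. The 3 comparisons share the WT libraries, so their values stand side by side and are not independent.

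The study also required a log2 FC of at least 1 in size. None of the 10 genes met this limit with edgeR in Hmgn1-/- mESCs, where 5.98% of all genes did, in Hmgn2-/- mESCs (5.15%) or in Hmgn1-/-Hmgn2-/- mESCs (6.3%). The members with an unadjusted p under 0.05 were 5, 4 and 7 in the same order, where 38.7%, 31% and 38.9% of all tested genes had one. DESeq2 called 4, 2 and 4 without the fold limit. Over all alternatives run, DESeq2 among them, the largest log2 FC of a member against WT mESCs was 0.97, for Dnmt3a in Hmgn1-/-Hmgn2-/- mESCs, and the lowest was -0.91, for Dnmt3l in Hmgn2-/- mESCs.

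**Figure D2:**
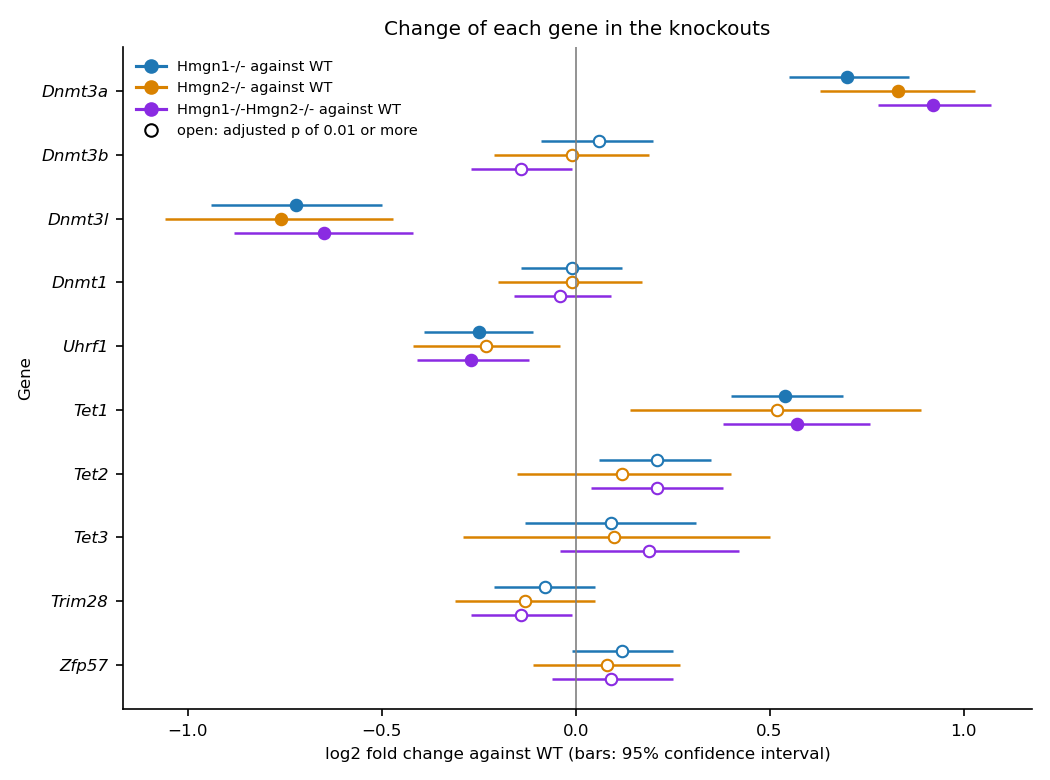
The horizontal axis gives the log2 FC against WT mESCs and the bars its 95% confidence interval for the 10 genes in 3 knockouts, with filled points at an adjusted p under 0.01. Dnmt3a lies between 0.70 and 0.92 and Dnmt3l between -0.76 and -0.65, and the points for Dnmt1 lie within 0.04 of 0.

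Between knockouts, no gene of the 10 was a DEG with edgeR. This was 0 of 10 for Hmgn2-/- against Hmgn1-/- mESCs, where 0.352% of all genes were DEGs, and 0 of 10 for Hmgn1-/-Hmgn2-/- against Hmgn1-/- mESCs (1.09%). It was 0 of 10 for Hmgn1-/-Hmgn2-/- against Hmgn2-/- mESCs (0.0434%), the line from which the double knockout was made. The members with an unadjusted p under 0.05 were 0, 2 and 0 in the same order (3.2%, 9.53% and 4.44% of all genes), and DESeq2 called 0 in each. The 2 members were Dnmt3a, with a log2 FC of 0.22 in Hmgn1-/-Hmgn2-/- against Hmgn1-/- mESCs (adjusted p = 0.114), and Dnmt3b, with -0.20 (adjusted p = 0.243). With the replicate number as a block, both were called there, Dnmt3a at an adjusted p of 0.000246 and Dnmt3b at 0.0014. In Hmgn1-/-Hmgn2-/- against Hmgn2-/- mESCs the log2 FC was 0.10 for Dnmt3a (95% CI -0.07 to 0.27), 0.12 for Dnmt3l (CI -0.13 to 0.38) and 0.06 for Tet1 (CI -0.37 to 0.49). A p that misses the threshold does not show that the lines had equal levels.

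The loss of Hmgn1 could be compared with and without Hmgn2, though from separate edits of Hmgn1 in 2 lines. Hmgn1 RNA itself was lower in Hmgn1-/-Hmgn2-/- than in Hmgn1-/- mESCs (log2 FC -2.73), so the arms differ in more than Hmgn2. With Hmgn2 intact, Dnmt3a rose and Dnmt3l fell upon the loss of Hmgn1, whereas in the Hmgn2-/- line both had no call. The test of this difference, a contrast over all 12 libraries, called 2 of the 10 genes, Dnmt3a and Dnmt3l, where 6.32% of all genes were called. It uses the same effects as the calls against WT mESCs above. Where the 3 knockouts lie at like levels apart from WT mESCs, the contrast returns the reverse of their shared shift. The 2 calls are therefore not a separate result and cannot be set against the 6.32%. For Dnmt3a the single knockouts added up to 1.54 on the log2 scale and the double knockout reached 0.93. The tested difference was -0.60 (95% CI -0.84 to -0.36, adjusted p = 0.00214). For Dnmt3l the single knockouts added up to -1.47 and the double knockout reached -0.63, a tested difference of 0.85 (CI 0.47 to 1.23, adjusted p = 0.00486). The overlapping gene Aire gave 1.2 (adjusted p = 0.00155). Tet1 gave -0.48 (adjusted p = 0.192) and Uhrf1 gave 0.23 (adjusted p = 0.168), with no call. Without Hmgn2-/- replicate 3, Tet1 gave -0.67 (adjusted p = 0.0101, no call). With each library left out in turn, Tet1 ranged from -0.67 to -0.23, with an adjusted p of up to 0.409. The call for Dnmt3a held with each library left out, with an adjusted p of up to 0.00864. The call for Dnmt3l was lost without WT replicate 2 or 3 (0.0174 and 0.0178), Hmgn1-/- replicate 1 or 2 (0.0169 and 0.0178), Hmgn2-/- replicate 2 (0.0140) or Hmgn1-/-Hmgn2-/- replicate 2 or 3 (0.0181 and 0.0138).

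**Figure D3:**
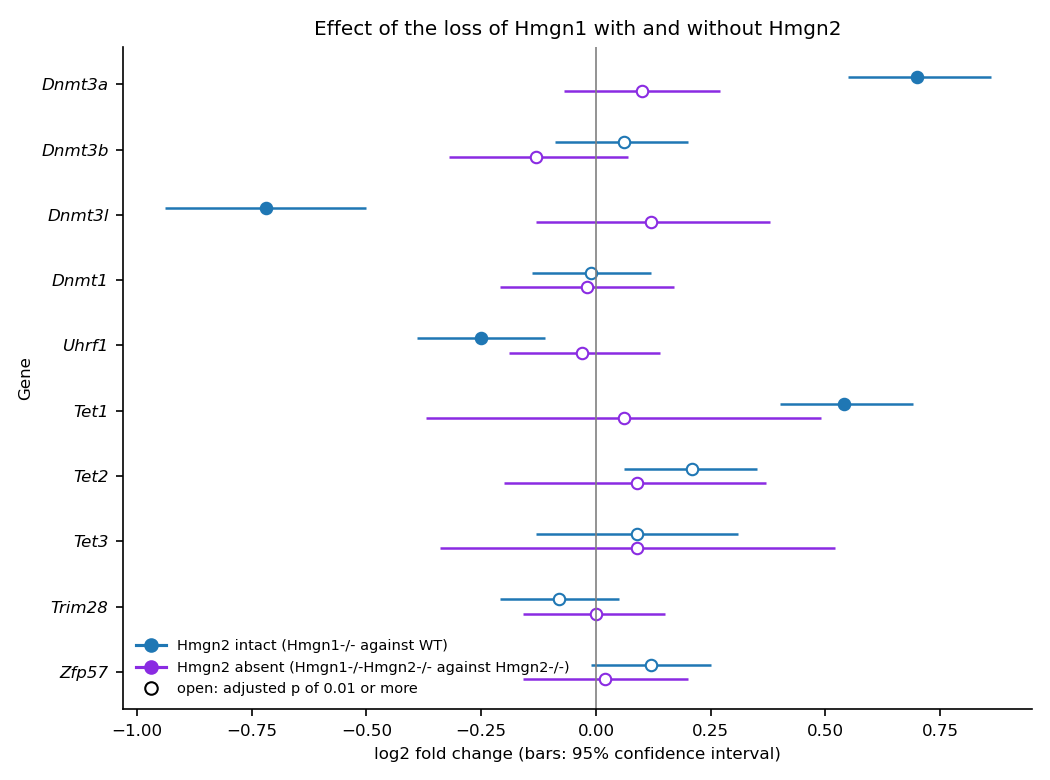
The horizontal axis gives the log2 FC upon the loss of Hmgn1 and the bars its 95% confidence interval, with Hmgn2 intact (Hmgn1-/- against WT mESCs) and with Hmgn2 absent (Hmgn1-/-Hmgn2-/- against Hmgn2-/- mESCs). Dnmt3a lies at 0.70 with Hmgn2 and at 0.10 without it, and Dnmt3l at -0.72 and 0.12. The RNA left of Hmgn1 was lower in Hmgn1-/-Hmgn2-/- than in Hmgn1-/- mESCs.

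For the 3 members with the widest range between genotypes, other genes followed nearly the same course over the 12 libraries. Likeness was measured as the root mean square difference of the centred log2 CPM, over the 11554 genes whose mean reached 50 counts. The genes most like Dnmt3a were Dna2 (0.0886), Slc7a6 (0.0899) and Homer2 (0.103), where the median gene was at 0.387. Those most like Dnmt3l were Ak1 (0.0734), Laptm5 (0.0748) and Gpc4 (0.0829), with a median of 0.382. For Tet1 they were Bahcc1 (0.0866), Glg1 (0.0905) and Cmtm4 (0.0926), with a median of 0.334.

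The wider machinery of methylation was taken as 6 lists, of partners, repair, readers, imprint protection, histone enzymes and methyl donors. Of their 71 tested genes, 10 were called in Hmgn1-/- mESCs (14.1%, with 17.3% of all genes), 6 in Hmgn2-/- mESCs (8.45%, with 9.97%) and 17 in Hmgn1-/-Hmgn2-/- mESCs (23.9%, with 18%). For each list below, the shares of all genes to set beside its counts are 7.28%, 3.3% and 7.79% higher and 10.1%, 6.66% and 10.2% lower, and 38.7%, 31% and 38.9% at an unadjusted p under 0.05. The median log2 FC of a list lay between -0.15 and 0.13 in each knockout, close to the 0 and 0.01 of all genes. Of the partners of maintenance methylation, 2, 1 and 2 of 8 tested genes rose in Hmgn1-/-, Hmgn2-/- and Hmgn1-/-Hmgn2-/- mESCs, an order kept for the lists that follow, and none fell with edgeR or DESeq2. At an unadjusted p under 0.05 there were 6, 3 and 4 of the 8, some of them higher and some lower in each knockout. They included Cdca7l, a relative of the HELLS cofactor Cdca7, with a log2 FC of 0.43 in Hmgn1-/- mESCs and 0.41 in Hmgn1-/-Hmgn2-/- mESCs. In Hmgn2-/- mESCs Cdca7l was at 0.51, a call lost without WT replicate 2 (adjusted p = 0.0251), WT replicate 3 (0.0237) or Hmgn2-/- replicate 2 (0.0247). Uhrf2, a relative of the member Uhrf1, went the other way from Uhrf1. Its log2 FC was 0.30 (adjusted p = 0.00988, close to the threshold), 0.34 (adjusted p = 0.0207, no call) and 0.37 (adjusted p = 0.00243). Of the genes of demethylation and base excision repair, none of 14 rose with edgeR or DESeq2 and 2, 1 and 3 fell. An unadjusted p under 0.05 was seen for 6, 7 and 5, some of them higher and some lower in each knockout. The median log2 FC of this list was 0.07, 0.07 and 0. Gadd45g, a stress-induced gene linked to active demethylation, fell most, with a log2 FC of -2.31, -2.33 and -2.37. Ung, the uracil glycosylase, fell in Hmgn1-/- mESCs (-0.39) and in Hmgn1-/-Hmgn2-/- mESCs (-0.45), and was at -0.33 in Hmgn2-/- mESCs (adjusted p = 0.0172, no call). Of the readers of methylated CpG, 0 of 7 were called by edgeR or by DESeq2 in each knockout, and 2, 1 and 1 had an unadjusted p under 0.05.

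Among the partners of ZFP57 and TRIM28 and other protectors of imprints, edgeR called 0, 0 and 3 of 14 tested genes. An unadjusted p under 0.05 was seen for 5, 3 and 5 of them, and DESeq2 called 1 higher and 1 lower in Hmgn1-/- mESCs, 0 in Hmgn2-/- mESCs and 2 higher and 2 lower in Hmgn1-/-Hmgn2-/- mESCs. The 3 that edgeR called in Hmgn1-/-Hmgn2-/- mESCs were Smchd1, which was higher, and Cbx1 and Dppa3, which were lower. The calls for Smchd1 and Cbx1 were each lost in 3 of the 6 runs with 1 library left out. Dppa3, which guards methylation in the zygote, had a log2 FC of -0.56 there, a call lost without Hmgn1-/-Hmgn2-/- replicate 3 (-0.54, adjusted p = 0.0107). Of 12 histone lysine methyltransferases and demethylases linked to DNA methylation, 1, 1 and 3 rose and 1, 0 and 0 fell. The H3K9 methyltransferase gene Ehmt2 had a log2 FC of 0.21 (no call), 0.36 and 0.35, and the H3K36 methyltransferase gene Whsc1l1 had 0.39, 0.31 (no call) and 0.43. Of these calls, those for Ehmt2 in Hmgn2-/- mESCs and Whsc1l1 in Hmgn1-/- mESCs were lost in 4 and 2 of the 6 runs with 1 library left out. Of 16 genes of the methyl donor S-adenosylmethionine and the folate cycle, 3, 2 and 4 rose and 1, 1 and 2 fell. Mthfd2, a mitochondrial folate enzyme, had a log2 FC of 0.37, 0.51 and 0.41, and Idh2, which makes the cosubstrate of the TET enzymes, had -0.46, -0.40 and -0.42, all called. Both calls in Hmgn2-/- mESCs were lost without WT replicate 2 (adjusted p = 0.0119 and 0.0231) or 3 (0.0124 and 0.0260), and that for Idh2 also without Hmgn2-/- replicate 2 (0.0268).

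Genes that regulate the methylation genes in mESCs fell more often than they rose, as did all genes: 4 of 8 fell in each knockout, and 1, 0 and 0 rose, with a median log2 FC of -0.34, -0.43 and -0.39. The 4 that fell were Pou3f1, Otx2, Zscan4c and Nanog. These genes are also members of the epiblast, 2-cell-like and stem cell marker lists below, so the lists are not separate results for them. Pou3f1, a factor of the exit from naive pluripotency, had a log2 FC of -1.34, -1.51 and -1.46, and Otx2, another, had -0.77, -0.97 and -0.81. Zscan4c had 117 to 271 counts per library in WT mESCs and 7 to 14, 5 to 14 and 38 to 72 in the knockouts, numbers so low that no fold is given, and near-identical copies of this family can share reads. With at least 10 counts required in every library, 3, 3 and 4 of the list fell. Of 16 tested germline genes known to be silenced by promoter methylation, 8, 6 and 6 fell and 1 rose in each knockout, also with at least 10 counts required in every library, and their median log2 FC was -0.84, -0.82 and -0.5. Mael (-1.54, -1.19 and -0.94), Tuba3a (-1.58, -1.30 and -1.09) and Rhox5 (-0.88, -1.39 and -1) fell, and Ddx4 rose (0.52, 0.80 and 0.90). Of 36, 37 and 37 tested imprinted genes, 8, 7 and 8 rose and 9, 8 and 9 fell, with a median log2 FC of -0.03, -0.06 and -0.05. Some of these were near 0 counts in a knockout, and with at least 10 counts required in every library, 8, 5 and 8 rose and 8, 6 and 7 fell. H19 had 77 to 153 counts per library in WT mESCs and 8 to 15, 2 to 4 and 1 to 5 in the knockouts, too few for a fold. The lines differed for Grb10, which had a log2 FC of 0.33, -3.20 and -2.95, all called, and for Nnat, at -3.01 in Hmgn1-/- mESCs, with no call for Nnat in the other lines.

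**Figure D4:**
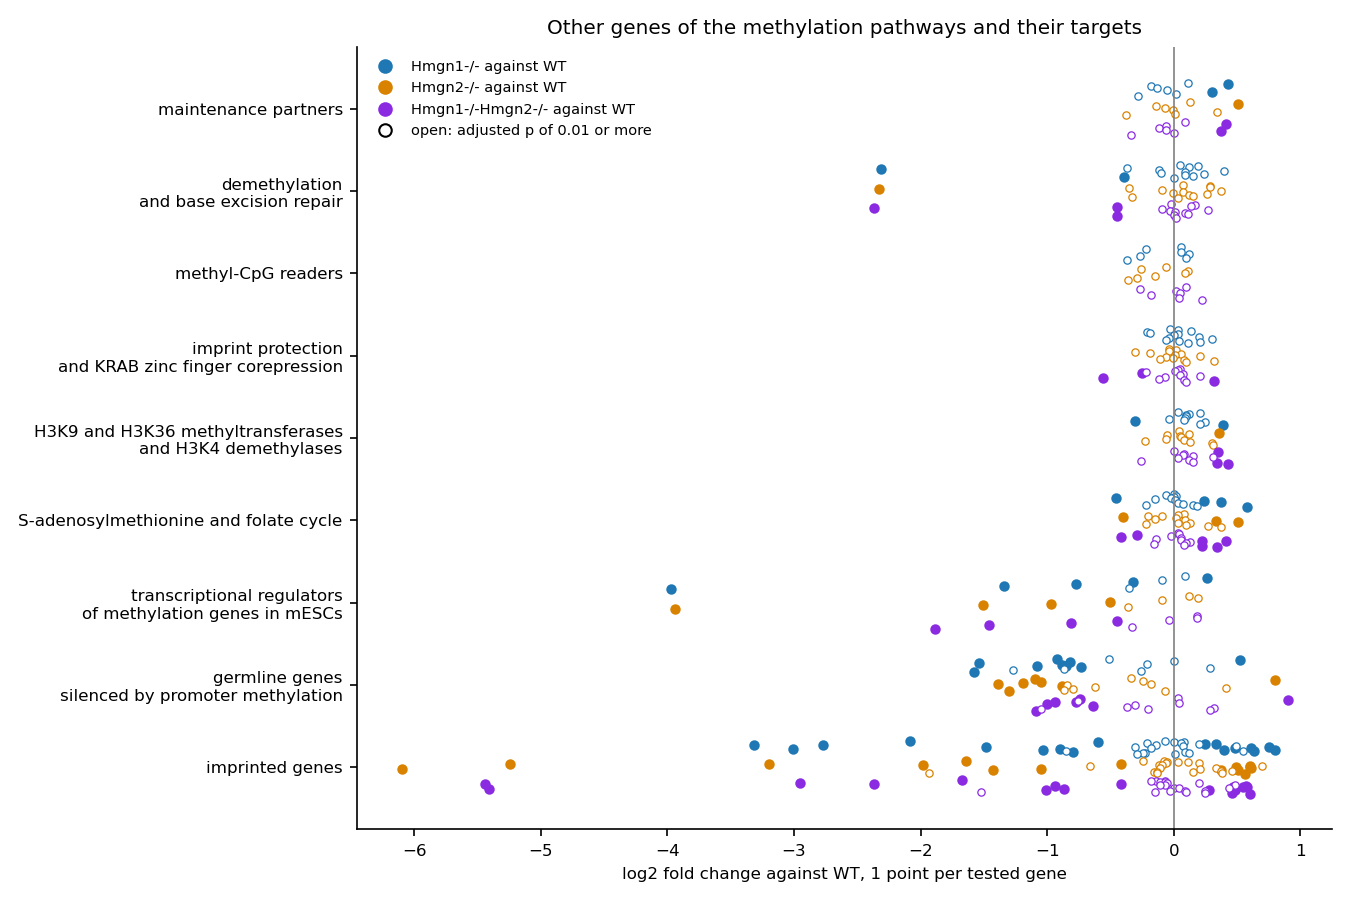
Each point is 1 tested gene of a list of partners, regulators or targets of the methylation machinery, placed by its log2 FC against WT mESCs on the horizontal axis, in 3 knockouts and with filled points at an adjusted p under 0.01. Apart from Gadd45g, the points of the first 6 lists lie close to 0, and regulators, germline genes and imprinted genes reach further, mostly to the left. Points of genes near 0 counts in a knockout, such as H19, are uncertain in their place.

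Markers of other cell types and states also differed between genotypes, and their part in the results was not tested. Of 16 primitive endoderm markers, 11, 11 and 15 rose and 1, 1 and 0 fell, with a median log2 FC of 1.47, 1.5 and 2.49. With at least 10 counts required in every library, 9, 9 and 13 rose. Their summed level was 688, 885 and 915 CPM in WT mESCs, 1012, 852 and 910 in Hmgn1-/- mESCs, 1164, 1069 and 876 in Hmgn2-/- mESCs and 1978, 1954 and 1847 in Hmgn1-/-Hmgn2-/- mESCs. The most abundant in WT mESCs was Sparc at 343 ± 69.6 CPM (SD, n = 3), and none was at 0. Sparc was the 1 marker that fell in each single knockout, against most of the list. It was at 182 ± 25.9 CPM in Hmgn1-/- mESCs and 201 ± 23.6 CPM in Hmgn2-/- mESCs, which lowered the sums there. The sum was higher in Hmgn1-/-Hmgn2-/- mESCs than in every other library. Of 9 tested markers of the formative and primed epiblast, none rose with edgeR or DESeq2 and 6, 6 and 7 fell, with a median log2 FC of -0.83, -0.97 and -0.81. These include genes that were low in the knockouts and could pass the filter on low counts only through WT mESCs, and with at least 10 counts required in every library, 4, 4 and 5 fell. Their sum was 310, 378 and 334 CPM in WT mESCs, 194, 234 and 203 in Hmgn1-/- mESCs, 187, 202 and 169 in Hmgn2-/- mESCs and 189, 212 and 191 in Hmgn1-/-Hmgn2-/- mESCs. The knockouts were below WT mESCs without overlap. Foxd3 was the most abundant at 105 ± 32.6 CPM in WT mESCs (SD, n = 3), and Cer1 was at 0 in all libraries.

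For markers of 2-cell-like cells and fibroblasts, the number that fell is not given, since several were so low in the knockouts that they could pass the filter on low counts only through WT mESCs. Of the 14 genes of 2-cell-like cells, 1 in WT mESCs, 7 and 6 in the single knockouts and 1 in the double knockout had at most 3 counts in each library. The sum of all 14 was 38.2, 32 and 26.6 CPM in WT mESCs, 2.8, 2.58 and 1.15 in Hmgn1-/- mESCs, 2.96, 2.01 and 2.38 in Hmgn2-/- mESCs and 10.6, 10.5 and 7.25 in Hmgn1-/-Hmgn2-/- mESCs. Zscan4c was the most abundant at 7.08 ± 1.21 CPM in WT mESCs (SD, n = 3), Gm4340 was at 0 in all libraries, and Tcstv1 was at 0 in Hmgn2-/- mESCs. Of the 10 fibroblast markers, which would mark feeder cells, 2 had at most 3 counts in each WT library and 4 did in each knockout. The sum of the 10 was 49.3, 43.9 and 51.1 CPM in WT mESCs, 25.4, 21.6 and 23.1 in Hmgn1-/- mESCs, 21.8, 22.4 and 20.5 in Hmgn2-/- mESCs and 24.1, 26 and 23.6 in Hmgn1-/-Hmgn2-/- mESCs. Fbln1 was the most abundant at 27.3 ± 1.33 CPM in WT mESCs (SD, n = 3), Lum was at 0 in all libraries, and Postn was at 0 in the single knockouts. Of the 12 embryonic stem cell markers, 3, 1 and 2 rose and 2, 1 and 2 fell, with a log2 FC of 0.93, 0.69 and 0.74 for Klf4 and of -0.32, -0.50 and -0.45 for Nanog, all called. For Nanog the call was lost in Hmgn1-/- mESCs without Hmgn1-/- replicate 2 (adjusted p = 0.0112) and in Hmgn2-/- mESCs without WT replicate 3 (0.0117).

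**Figure D5:**
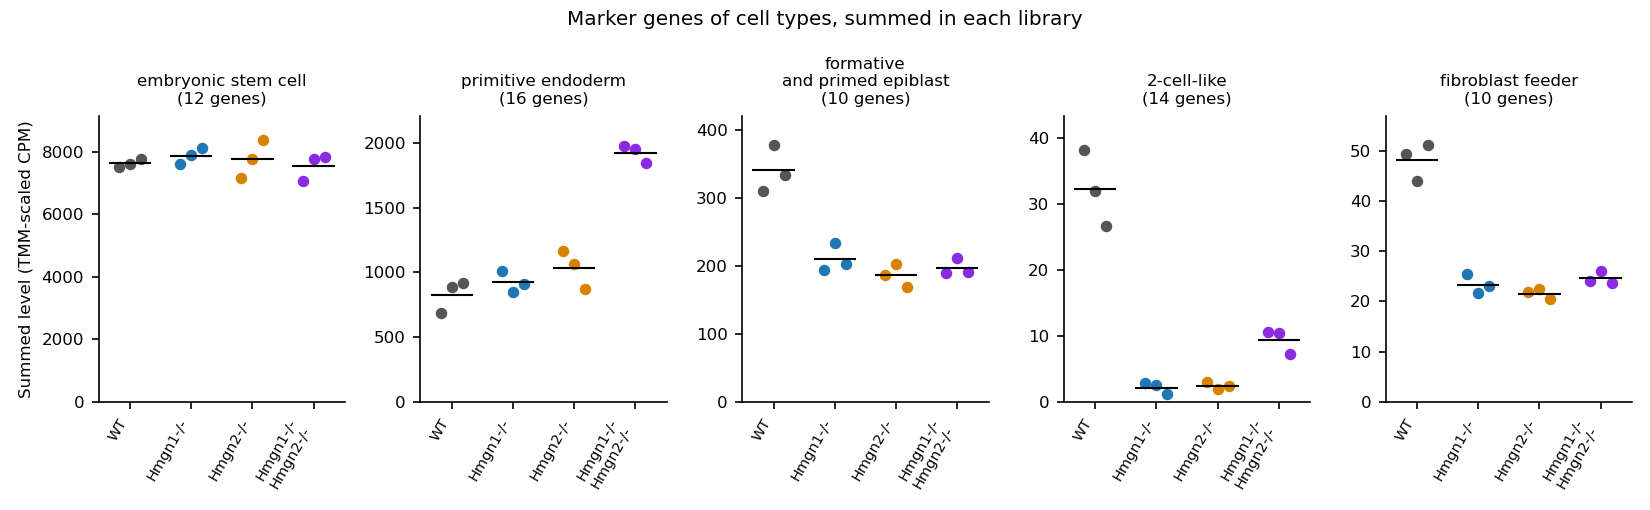
Each panel shows the summed level of 1 marker list in TMM-scaled CPM on a vertical axis that starts at 0, with 1 point per library and a line at the mean of 3 libraries. Primitive endoderm markers are highest in Hmgn1-/-Hmgn2-/- mESCs, and formative, 2-cell-like and fibroblast markers are lower in all 9 knockout libraries than in WT mESCs.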

How the data were processed

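RNA of the 12 libraries was sequenced from poly-A-selected, paired-end libraries and aligned to mm10 with STAR, and the authors deposited counts, whole numbers of reads per gene without normalization. The program, annotation and strand setting of the counting are not stated in the sources used. The members, gene lists and alternatives were chosen with earlier results of these data known. Tests were run in R 4.3.3 with edgeR 4.0.16 (TMM, the default filter on low counts, quasi-likelihood test, Benjamini-Hochberg adjustment over all tested genes, calls at an adjusted p under 0.01), in fits of the 6 libraries of each pair. The departure from additivity was a contrast in a fit of all 12 libraries. limma 3.58.1 was loaded by edgeR, and tables and figures were made in Python 3.11.15 with pandas 2.3.3 and matplotlib 3.10.9. Alternatives were DESeq2 1.42.0, RLE scaling, the fold limit of the study, an adjusted p under 0.05, a filter of 1 count in all or of 10 in each library, one fit of all 12 libraries, a block for the replicate number, counts thinned to the lowest total, and each library left out in turn. One fit of 11 libraries, with Hmgn2-/- replicate 3 left out, was added after seeing the data.

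All 10 members, and up to 3 called genes per direction and list with a mean of at least 50 counts, could be named, as could the most abundant marker of each cell type and markers at 0. One marker gene counted in its list is not reported here by name. Coordinates and exon lengths come from GENCODE M21 (GRCm38), in which 21737 of the 23412 gene names matched 1 gene. Promoters come from RefSeq (GRCm38.p6), in which all 10 members matched. Promoter stretches with bases in annotated untranslated exons beyond a limit of 30 were shortened or left out. The last Dnmt3a stretch, with 16 such bases, lay under this limit and is printed in full. Library totals were 17337908 to 31448468 counts. No molecular identifiers are described, so intervals cover counting and replicate error only. The steps were tested on simulated data with known changes.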

Additional observations from a re-analysis of the deposited data

Results flagged for a closer look

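For the genes named here, the effect of the loss of Hmgn1 was compared with and without Hmgn2, by edgeR's test of the difference over all 12 libraries. It passed an adjusted p under 0.01 for the 34 genes reported here, where 6.32% of 14323 tested genes passed. They are listed with the log2 difference. A positive value means that the double knockout lay above the sum of the single knockouts. Named genes that did not pass, such as Nanog (0.38, adjusted p = 0.0163), Utf1 (-0.33, adjusted p = 0.0331) and Klf2 (0.29, adjusted p = 0.234), are left out. Many genes were named for a call against WT mESCs. The test uses those same effects, so the 34 cannot be set against the 6.32%. No explanation was weighed.

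Hmgn1, the edited gene itself, gave -2.63. Of the genes of methylation and their neighbours, Dnmt3a gave -0.60, Dnmt3l 0.85 and Aire 1.2. Among partners and metabolism, Cdca7l gave -0.53, Gadd45g 2.28, Idh2 0.45, Mthfd2 -0.46 and Tdh -0.60. Of the regulators, Otx2 gave 0.93 and Pou3f1 1.40.

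Germline genes gave 1.79 for Mael, 1.28 for Rhox5, 1.62 for Slc25a31 and 1.80 for Tuba3a. Imprinted genes gave 2.39 for Igf2, -0.87 for Meg3, 2.73 for Nnat and -0.64 for Rian.

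Primitive endoderm markers gave -2.24 for Cubn, -2.39 for Pdgfra, -2.27 for Sox17 and 1.49 for Sparc. The epiblast marker Fgf5 gave 3.97, and the stem cell markers Esrrb and Klf4 gave -0.50 and -0.87. Fibroblast markers gave 1.5 for Col1a1, 0.91 for Fbln1 and 1.94 for Thy1. Genes of 2-cell-like cells gave 6.61 for Usp17lb, 4.68 for Usp17le, 6.02 for Zscan4c, 6.39 for Zscan4d and 5.41 for Zscan4f, values made uncertain by near-identical copies that can share reads. For Fgf5 and these 5 genes, the single knockouts together predict 0.182 to 1.18 counts per library of the double knockout, close to the floor of 0, so a positive difference was all but fixed and says little. Each of the other genes had a prediction of at least 9.67 counts.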

How the results depend on the processing

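No log2 FC of a member or other named gene that was called turned its sign under any alternative run. Dnmt3a kept its call against WT mESCs in all 3 knockouts under every alternative but the fold limit of the study.

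The number of members called was 0 for Hmgn1-/-, Hmgn2-/- and Hmgn1-/-Hmgn2-/- mESCs against WT mESCs and for the departure from additivity with the fold limit. With all 12 libraries in one fit it was 2 for Hmgn1-/- and 2 for Hmgn1-/-Hmgn2-/- mESCs, where Tet1 and Uhrf1 lost their calls; the cause was not tested. In the fit of 11 libraries without Hmgn2-/- replicate 3, chosen after seeing the data, it was 4 for Hmgn1-/-, 3 for Hmgn2-/- and 4 for Hmgn1-/-Hmgn2-/- mESCs. With an adjusted p under 0.05, Hmgn1-/- mESCs had 5, with Tet2 added. With each library left out in turn, it ranged from 3 to 4 for Hmgn1-/-, from 1 to 3 for Hmgn2-/- and from 3 to 4 for Hmgn1-/-Hmgn2-/- mESCs, from 0 to 0 between knockouts and from 1 to 2 for the departure from additivity.

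With the replicate number as a block, 2 members (Dnmt3a and Dnmt3b) were called in Hmgn1-/-Hmgn2-/- against Hmgn1-/- mESCs and 5 in Hmgn1-/- against WT mESCs, with Tet2 added, and the other counts did not move. Whether the numbers mark a pairing was judged from the correlation of residuals between libraries of the same number. It was over 0.1 for all 3 numbers in Hmgn1-/-Hmgn2-/- against WT mESCs (0.17, 0.117 and 0.102), where the block gave 4 members and 3126 genes in all, against 2544 without it. In the other pairs at least 1 number fell short, with a lowest value of 0.013 to 0.093. All 18 correlations were positive, and 5, 5 and 6 of the 6 libraries against WT mESCs and 6, 4 and 5 between knockouts matched the library of their own number best, so a pairing in the other comparisons is not excluded.

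Counts over all genes depended on the setting too. For Hmgn2-/- against WT mESCs, 1400 genes were called, 2215 with all 12 libraries in one fit and 2411 in the fit of 11. With 1 library left out, the count ranged from 727 to 1939 there, from 1606 to 3066 for Hmgn1-/- and from 1712 to 3029 for Hmgn1-/-Hmgn2-/- against WT mESCs. It ranged from 26 to 61 for Hmgn2-/- against Hmgn1-/- mESCs (48 with all), from 98 to 147 and from 1 to 20 for Hmgn1-/-Hmgn2-/- against Hmgn1-/- and Hmgn2-/- mESCs, and from 582 to 1095 for the departure from additivity. For Hmgn1-/- and Hmgn1-/-Hmgn2-/- mESCs, 2412 and 2544 were called, 2153 and 2255 with all 12 libraries in one fit, and 832 and 890 with the fold limit. For Hmgn1-/-Hmgn2-/- against Hmgn2-/- mESCs, 6 genes were called, 54 with DESeq2, 30 with no filter, 77 with the block and 3 after thinning. For Hmgn1-/-Hmgn2-/- against Hmgn1-/- mESCs, 150 were called, 250 with no filter and 408 with the block. The departure from additivity had 905, and 1458 with the block. At an adjusted p under 0.05 the counts against WT mESCs were 3959, 2649 and 4094.

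Over the alternatives, the log2 FC of members stayed on its side of the threshold in 1117 cases, lost the call in 36 and gained one in 7. For the other named genes these numbers were 2403, 195 and 62, and counts of lists moved by over 1.5 times in 195 cases and did not in 1149. Tet3 had the lowest counts of the members.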
